A study of Mus musculus with 9 samples.

Results

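The amino acid transporters of the solute carrier (SLC) families were measured in intestinal epithelial cells (IECs) after activation of natural killer T (NKT) cells. The genes were those annotated as protein-coding whose symbol starts with Slc1a, Slc3a, Slc6a, Slc7a, Slc36a, Slc38a or Slc43a, apart from Slc6a4, and which had at least 10 reads in 3 or more libraries. Of the 57 genes with these prefixes in the count table, 42 had enough reads, out of 29288 genes in all. They were 6 genes of the Slc1 family, 2 of Slc3, 8 of Slc6, 12 of Slc7, 2 of Slc36, 9 of Slc38 and 3 of Slc43. The rule used the prefix alone, so it also took in Slc7a6os, a gene that lies beside Slc7a6 and does not encode a transporter. The other 15 genes, among them Slc6a18, Slc36a2, Slc38a3, Slc38a5 and Slc7a3, had too few reads.

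The 9 libraries came from female wild-type C57BL/6J mice, and the study's methods give an age of 7 to 10 weeks for its mice. The 3 control mice received PBS by intraperitoneal injection and were sampled at 18 h, 3 mice were sampled 18 h after 2 µg of α-galactosylceramide (18h-αGal), a glycolipid antigen presented to NKT cells by CD1d, and 3 others 72 h after it (72h-αGal). Crypt cells of the proximal small intestine were sorted as live EpCAM+ Ter119- CD31- CD45- cells, and each library was made from the RNA of 1 mouse. All controls were taken at 18 h, so time and treatment cannot be told apart in the 72h-αGal group, and both treated groups were compared with the same controls.

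The absorptive epithelium takes amino acids up at its brush border and passes them to the blood across the basolateral membrane. Several transporters work as pairs, in which a light chain of the Slc7 family that carries the substrate is held at the membrane by a heavy chain, Slc3a1 at the brush border and Slc3a2 at the basolateral side. Dividing crypt cells in addition use carriers for glutamine, neutral and cationic amino acids that serve growth, and lysosomal carriers of the Slc36 and Slc38 families export the products of protein breakdown and inform the mTORC1 kinase. Members of the Slc6 and Slc1 families also transport taurine, creatine, glycine and glutamate, the last of these being best known at synapses and in astrocytes.

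Total counts per library ranged from 8887861 (control 3) to 32722293 (control 1), a 3.68-fold range, and the 42 genes took 0.337% to 0.419% of them. Values below are normalised counts, the deposited count of a gene divided by 1 factor per library. The epithelial markers Epcam, Krt8, Krt18, Krt19 and Cdh1 summed to 78595 to 89171 normalised counts in controls, 80717 to 88492 at 18 h and 70614 to 88004 at 72 h, whereas 10 lymphocyte markers together reached at most 193. Myeloid markers, 7 of them, summed to 328 to 545 in controls, 402 to 648 at 18 h and 620 to 815 at 72 h. All 72h-αGal sums of these myeloid markers lay above those of the controls, and their part in the results was not tested. Control 3 and 72h-αGal 3 stood at opposite ends for absorptive genes: 12 enterocyte markers, Alpi, Fabp1 and Sis among them, summed to 179413, 128247 and 333291 in the controls, 181478, 165273 and 264959 at 18 h and 119759, 157784 and 82837 at 72 h. Counts of calls are therefore also given without both of these libraries, an alternative chosen after the data were seen.

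Per kilobase of exon, Slc38a2 and Slc6a8 were the most abundant of the transporters. Slc38a2, a sodium-coupled carrier of small neutral amino acids such as glutamine, stood at 1077 ± 152 normalised counts per kb in controls (SD, n = 3), 943 ± 82.3 at 18 h and 1233 ± 78.1 at 72 h. Slc6a8, the creatine transporter, stood at 1004 ± 286, 1186 ± 273 and 863 ± 251 per kb, so that the order of these 2 was within the spread in controls and at 18 h. The next 5 in the mean over all libraries, Slc7a9, Slc7a8, Slc6a6, Slc3a2 and Slc43a2, lay between 591 and 633 per kb, closer together than the SD of most of them. They comprise the cystine and cationic amino acid carrier of the brush border, a basolateral exchanger, the taurine transporter, the basolateral heavy chain and a basolateral uniporter for large neutral amino acids. Of the brush border heterodimer, the light chain Slc7a9 had 718 ± 218 per kb in controls and the heavy chain Slc3a1 226 ± 98.9. Of the genes with low 18h-αGal values described below, Slc1a3, Slc7a2 and Slc1a2 stood far down the order at 34.9, 27.3 and 25 per kb in controls, whereas Slc6a20a, Slc1a1 and Slc38a7 had 526, 182 and 84.9. The cystine-glutamate exchanger Slc7a11 and Slc7a14 were lowest, with 0.792 and 0.622 per kb over all libraries.

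**Figure D1:**
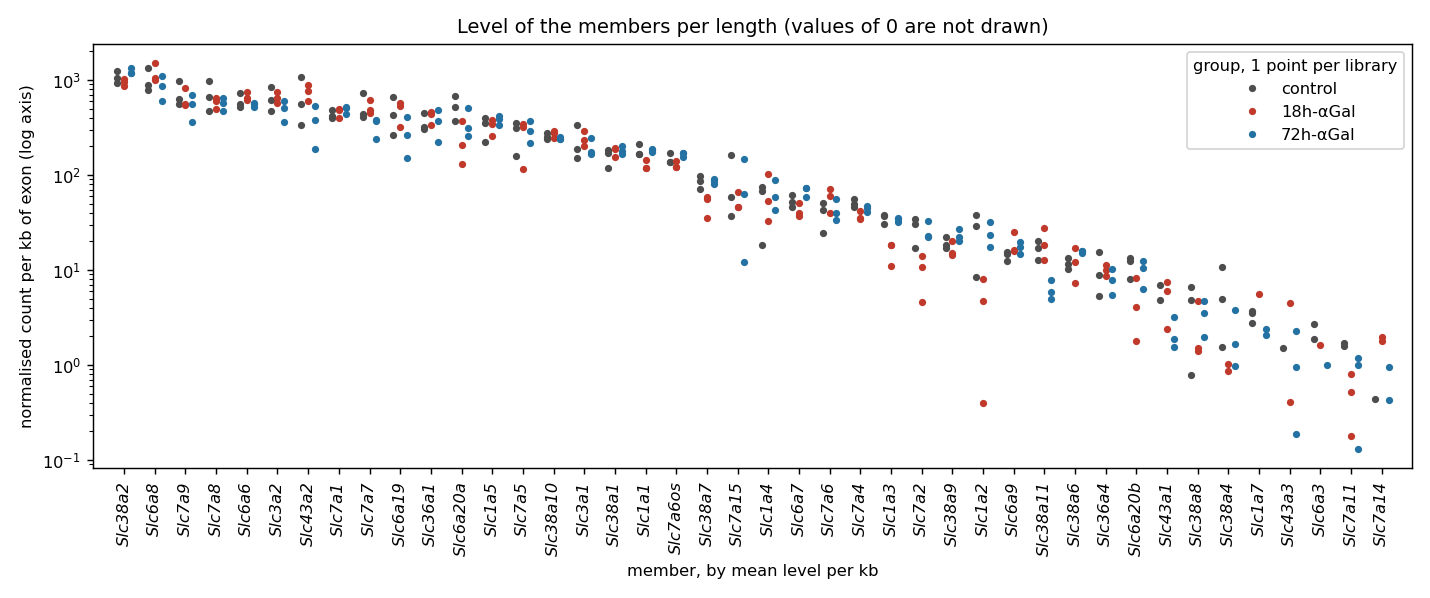
Level of the 42 genes as normalised count per kb of exon (y axis, log scale), ordered by the mean over all libraries, with 1 point per library coloured by group; values of 0 are not drawn. The means run from 1084 for Slc38a2 to 0.622 for Slc7a14, and the 18h-αGal points of Slc1a3, Slc7a2 and Slc1a2 lie below those of the other groups.

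At 18 h after αGalCer, 3 transporters fell and none rose: the glutamate carriers Slc1a3 and Slc1a1 and the cationic amino acid carrier Slc7a2. They were called at an adjusted p under 0.05 by the quasi-likelihood test of edgeR, adjusted after Benjamini and Hochberg over all 18933 genes tested, of which 40 were transporters (Slc43a3 and Slc6a3 were too low to test). The 3 calls were 7.5% of the 40, beside 5.96% of all genes called in this comparison. All 3 were lower, beside 2.69% of all genes called lower, and 3.27% of all genes were called higher. Without control 1, control 2, 18h-αGal 1 or 72h-αGal 1, Slc1a3 alone was called, and without both control 3 and 72h-αGal 3 the count was again 3. The median log2 fold change of the 40 was −0.046, and that of all genes tested −0.030.

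Slc1a3 encodes a sodium-dependent transporter of glutamate and aspartate that is best known in astrocytes. Its normalised counts were 535, 552 and 439.8 in the controls, 265, 265 and 161 at 18 h and 463, 499 and 514 at 72 h. Every 18h-αGal library lay below every other library, and the ranges of the controls and the 72h-αGal group overlapped. The level at 18 h was 0.457 of control (log2 fold change −1.13 ± 0.22 SE, edgeR adjusted p = 0.00678), and the call stood under all 15 alternatives (adjusted p 9.3e-05 to 0.0367). These values rest on 117 to 911 reads per library.

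Slc7a2 encodes a carrier for arginine, lysine and ornithine. It had 309, 345 and 174 normalised counts in the controls, 109.7, 143 and 46.9 at 18 h and 228, 227 and 329.7 at 72 h. The 18h-αGal libraries were again the lowest 3, and control 3 was the lowest of the controls, with 73 reads. Expression at 18 h was 0.365 of control (log2 fold change −1.45 ± 0.37, edgeR adjusted p = 0.0316). The call was lost without control 1 (0.111), control 2 (0.106), 18h-αGal 1 (0.0764), 18h-αGal 3 (0.0609) or 72h-αGal 1 (0.053), the number in parentheses being the adjusted p, with log2 fold changes between −1.78 and −1.13 over the libraries left out one at a time.

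Slc1a1 encodes the glutamate, aspartate and cysteine carrier of the brush border. It had 1414, 1819 and 1431 normalised counts in the controls, 1003, 1020.5 and 1232 at 18 h and 1594, 1577 and 1477 at 72 h, which again placed all 18h-αGal libraries below the rest. Its fall was the smallest of the 3, to 0.7 of control (log2 fold change −0.51 ± 0.14, edgeR adjusted p = 0.0379). The call was lost without control 1 (0.0711), control 2 (0.159), 18h-αGal 1 (0.125), 18h-αGal 2 (0.155), 72h-αGal 1 (0.0663), 72h-αGal 2 (0.0629) or 72h-αGal 3 (0.0507), again with adjusted p in parentheses. Slc1a1 overlaps Spata6l on the opposite strand, and the strand setting of the counting was not stated.

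**Figure D2:**
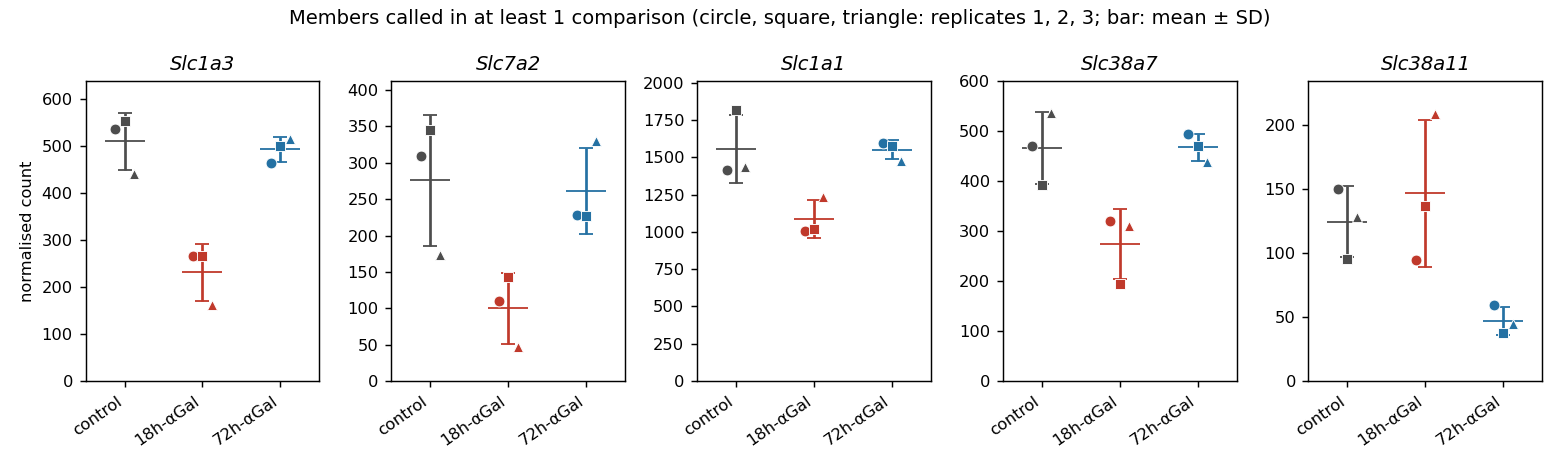
Normalised counts (y axis, from 0) of the 5 transporters called in at least 1 comparison, by group (x axis), with 1 point per mouse and the mean ± SD (n = 3). For Slc1a3, Slc7a2, Slc1a1 and Slc38a7 the 18h-αGal points lie below all others, and for Slc38a11 the 72h-αGal points lie below all others.

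The promoter windows of those called genes that have one are shown because Slc1a3, Slc1a1 and Slc38a7 were all lowest at 18 h and Slc38a11 was lowest at 72 h. Each window runs from 250 bases before to 50 bases after the annotated start, on the strand of the gene, from RefSeq on GRCm38.p6. In them, both strands were searched for TGATGNAA, the core of the amino acid response element through which ATF4 acts, and capitals would mark a match.
Slc1a3, chr15:8710758-8711057, minus strand: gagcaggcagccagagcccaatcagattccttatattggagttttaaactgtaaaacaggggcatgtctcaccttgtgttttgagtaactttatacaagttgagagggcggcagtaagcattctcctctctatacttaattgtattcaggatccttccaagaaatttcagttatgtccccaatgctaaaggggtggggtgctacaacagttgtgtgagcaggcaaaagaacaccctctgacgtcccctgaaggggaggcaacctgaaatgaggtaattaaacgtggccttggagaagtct
Slc1a1, chr19:28834885-28835184, plus strand: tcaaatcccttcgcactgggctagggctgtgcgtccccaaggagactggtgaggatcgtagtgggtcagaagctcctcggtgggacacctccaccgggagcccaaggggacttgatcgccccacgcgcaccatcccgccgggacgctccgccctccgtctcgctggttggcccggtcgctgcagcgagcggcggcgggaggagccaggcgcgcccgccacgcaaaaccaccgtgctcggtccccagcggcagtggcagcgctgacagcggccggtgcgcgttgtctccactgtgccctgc
Slc38a7, chr8:95853442-95853741, minus strand: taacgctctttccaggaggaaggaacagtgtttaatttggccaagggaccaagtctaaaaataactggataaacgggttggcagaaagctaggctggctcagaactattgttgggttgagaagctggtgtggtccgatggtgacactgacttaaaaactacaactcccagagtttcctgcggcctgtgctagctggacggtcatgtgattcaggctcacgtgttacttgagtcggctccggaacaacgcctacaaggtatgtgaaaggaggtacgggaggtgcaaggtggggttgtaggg
Slc38a11, chr2:65363977-65364276, minus strand: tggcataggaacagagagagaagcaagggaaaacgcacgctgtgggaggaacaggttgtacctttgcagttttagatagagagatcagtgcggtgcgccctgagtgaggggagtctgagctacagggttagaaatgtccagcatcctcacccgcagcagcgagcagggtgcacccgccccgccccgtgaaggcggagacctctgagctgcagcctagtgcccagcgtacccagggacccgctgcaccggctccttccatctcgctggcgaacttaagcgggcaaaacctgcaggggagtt

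None of these 4 windows holds TGATGNAA. It is in 3.97% of the 32851 promoter windows of that table, in at least 1 window of 4.51% of its 27025 genes, and in those of 3 of the 33 transporters that have a window there, namely Slc1a4, Slc7a11 and Slc7a7. The windows also differ in base composition: that of Slc1a1 has a GC content of 70.3% and 32 CpG, and that of Slc1a3 45.3% and 3 CpG. These letters describe the windows only, since binding was not measured.

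Another 6 transporters had an unadjusted p under 0.05 at 18 h, all with lower values and none past the threshold after adjustment: Slc6a20a, Slc6a20b, Slc38a7, Slc1a2, Slc7a4 and Slc38a4. With the called ones this made 9 of 40 (22.5%), beside 20.8% of all genes. The 18h-αGal and control ranges did not overlap for 9 of 40 transporters (22.5%), beside 23.8% of all genes, with Slc6a9, the glycine transporter, the 1 gene among them that had higher values. Slc38a7, a lysosomal exporter of glutamine and asparagine, had 470.4, 393 and 537 normalised counts in controls and 320.3, 194 and 310.4 at 18 h (log2 fold change −0.75 ± 0.22, edgeR adjusted p = 0.0546), and it passed the threshold with DESeq2 (adjusted p = 0.0281) and with no filter on low counts (0.0307).

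Slc1a2, another glutamate transporter known from astrocytes, varied widely between libraries. It had 402, 527 and 119 normalised counts in controls, 113, 66.5 and 5.52 at 18 h and 243, 324 and 444 at 72 h. The 18h-αGal libraries lay below all controls, but the controls themselves were far apart, and the log2 fold change was −2.45 ± 0.85 (edgeR adjusted p = 0.153). Within the 18h-αGal group, library 3 had the lowest Slc1a3, Slc7a2 and Slc1a2, and within the controls library 3 did. Stem cell markers (Lgr5, Olfm4, Ascl2, Smoc2 and Axin2) moved in the same way, with sums of 49047, 58557 and 31600.3 in controls, 29517, 22469 and 8149 at 18 h and 48016, 38235 and 60845 at 72 h. Of these 5 markers, none was called at 18 h and Axin2 alone was called, as higher, between 18 h and 72 h. In bulk RNA, fewer cells of a type and less RNA per cell cannot be told apart, and the part of the stem cell markers in these results was not tested.

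Markers of neurons and glia, the cells in which Slc1a2 and Slc1a3 are best known, were low: those measured summed to 76.1 to 176 normalised counts in controls, 63.5 to 65.6 at 18 h and 57.9 to 104 at 72 h. Among them Sox10, a transcription factor of glia, had 18.8, 20.9 and 42.8 in controls and 6.31, 0 and 0 at 18 h. Fibroblast and muscle markers summed to 61.8 to 78.1, 16.2 to 20.8 and 19.1 to 53.3. Both sums were thus lower at 18 h than in controls, at levels under those of Slc1a3, and their part in the result was not tested.

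At 72 h after αGalCer, no transporter was called against control with edgeR or with DESeq2, beside 0.0264% of all genes with edgeR. An unadjusted p under 0.05 was reached by 2 of 40 (5.0%), Slc7a7 and Slc38a11, beside 5.94% of all genes. The genes called lower at 18 h stood near the control level at 72 h, and so did Slc38a7, which edgeR had not called at 18 h. Their log2 fold changes at 72 h were −0.038 ± 0.21 for Slc1a3, −0.072 ± 0.36 for Slc7a2, 0.0083 ± 0.14 for Slc1a1 and 0.023 ± 0.21 for Slc38a7. The signs of these 4 values turned under some alternatives, and a p that misses the threshold does not show that the levels were equal. Slc7a7, the light chain through which cationic amino acids leave the cell, had 2648, 2469 and 4469.5 normalised counts in controls and 2239, 2319 and 1451 at 72 h (log2 fold change −0.65 ± 0.24, unadjusted p = 0.0228, edgeR adjusted p = 0.826), and all 3 of the latter lay below the controls. Slc7a7 overlaps Oxa1l on the opposite strand.

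Between 18 h and 72 h, Slc1a3, Slc7a2, Slc1a1 and Slc38a7 rose and Slc38a11 fell. They were 5 of 40 (12.5%), beside 10.2% of all genes called in this comparison. The 4 that rose were 10% of the transporters, beside 4.18% of all genes, and the 1 that fell was 2.5%, beside 6.04%. Slc1a3 rose 2.13-fold (log2 fold change 1.09 ± 0.22, edgeR adjusted p = 0.00579) and stayed called under every alternative. Slc7a2 rose 2.6-fold (1.38 ± 0.37 on the log2 scale, edgeR adjusted p = 0.028), a call lost without 18h-αGal 1 (0.0629), 18h-αGal 3 (0.0657), 72h-αGal 1 (0.0582) or 72h-αGal 3 (0.134). Slc1a1 rose 1.44-fold (0.52 ± 0.14, edgeR adjusted p = 0.0246), a call lost without 18h-αGal 1 (0.086), 18h-αGal 2 (0.0998), 72h-αGal 1 (0.0854), 72h-αGal 2 (0.0776) or 72h-αGal 3 (0.0659). Slc38a7, with 495, 470.0 and 439 normalised counts at 72 h, rose 1.71-fold (0.77 ± 0.22, edgeR adjusted p = 0.034), a call lost without control 1 (0.0514), 18h-αGal 2 (0.135), 72h-αGal 1 (0.109), 72h-αGal 2 (0.0865) or 72h-αGal 3 (0.086). The count was 3 without both control 3 and 72h-αGal 3, 3 without any 1 of the 18h-αGal libraries, 2 without 72h-αGal 1 or 72h-αGal 2, and 1 without 72h-αGal 3. These are the same 18h-αGal libraries as in the comparison with control, so the rises and the falls are not independent of each other.

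Slc38a11, a member of the sodium-coupled neutral amino acid transporter family whose substrates are little known, had another pattern. It had 149.8, 94.9 and 128 normalised counts in controls, 94.6, 137 and 208 at 18 h and 59.1, 37.3 and 44.2 at 72 h, so that all 72h-αGal libraries lay below all others. It fell to 0.324 of its 18 h level (log2 fold change −1.63 ± 0.37, edgeR adjusted p = 0.0127), a call lost without 18h-αGal 3 (0.0626), 72h-αGal 2 (0.06) or 72h-αGal 3 (0.0627), and against control the log2 fold change was −1.40 ± 0.37 (unadjusted p = 0.00204, adjusted p = 0.663). At 18 h against control it was 0.23 ± 0.36 (edgeR adjusted p = 0.781). The markers of enteroendocrine cells, the hormone-producing cells of the epithelium, were also lowest at 72 h: the sum of Chga, Chgb, Neurod1, Tac1, Pax6 and Scg5 was 5693, 5193 and 5102 in controls, 6939, 7569.8 and 10352 at 18 h and 2631, 2668 and 2294 at 72 h. At 18 h this sum lay above all controls, whereas Slc38a11 overlapped them. Against control, edgeR called Chga, Chgb and Tac1 higher at 18 h, and Chga, Chgb, Neurod1 and Tac1 lower at 72 h. Their part in the Slc38a11 result was not tested.

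**Figure D3:**
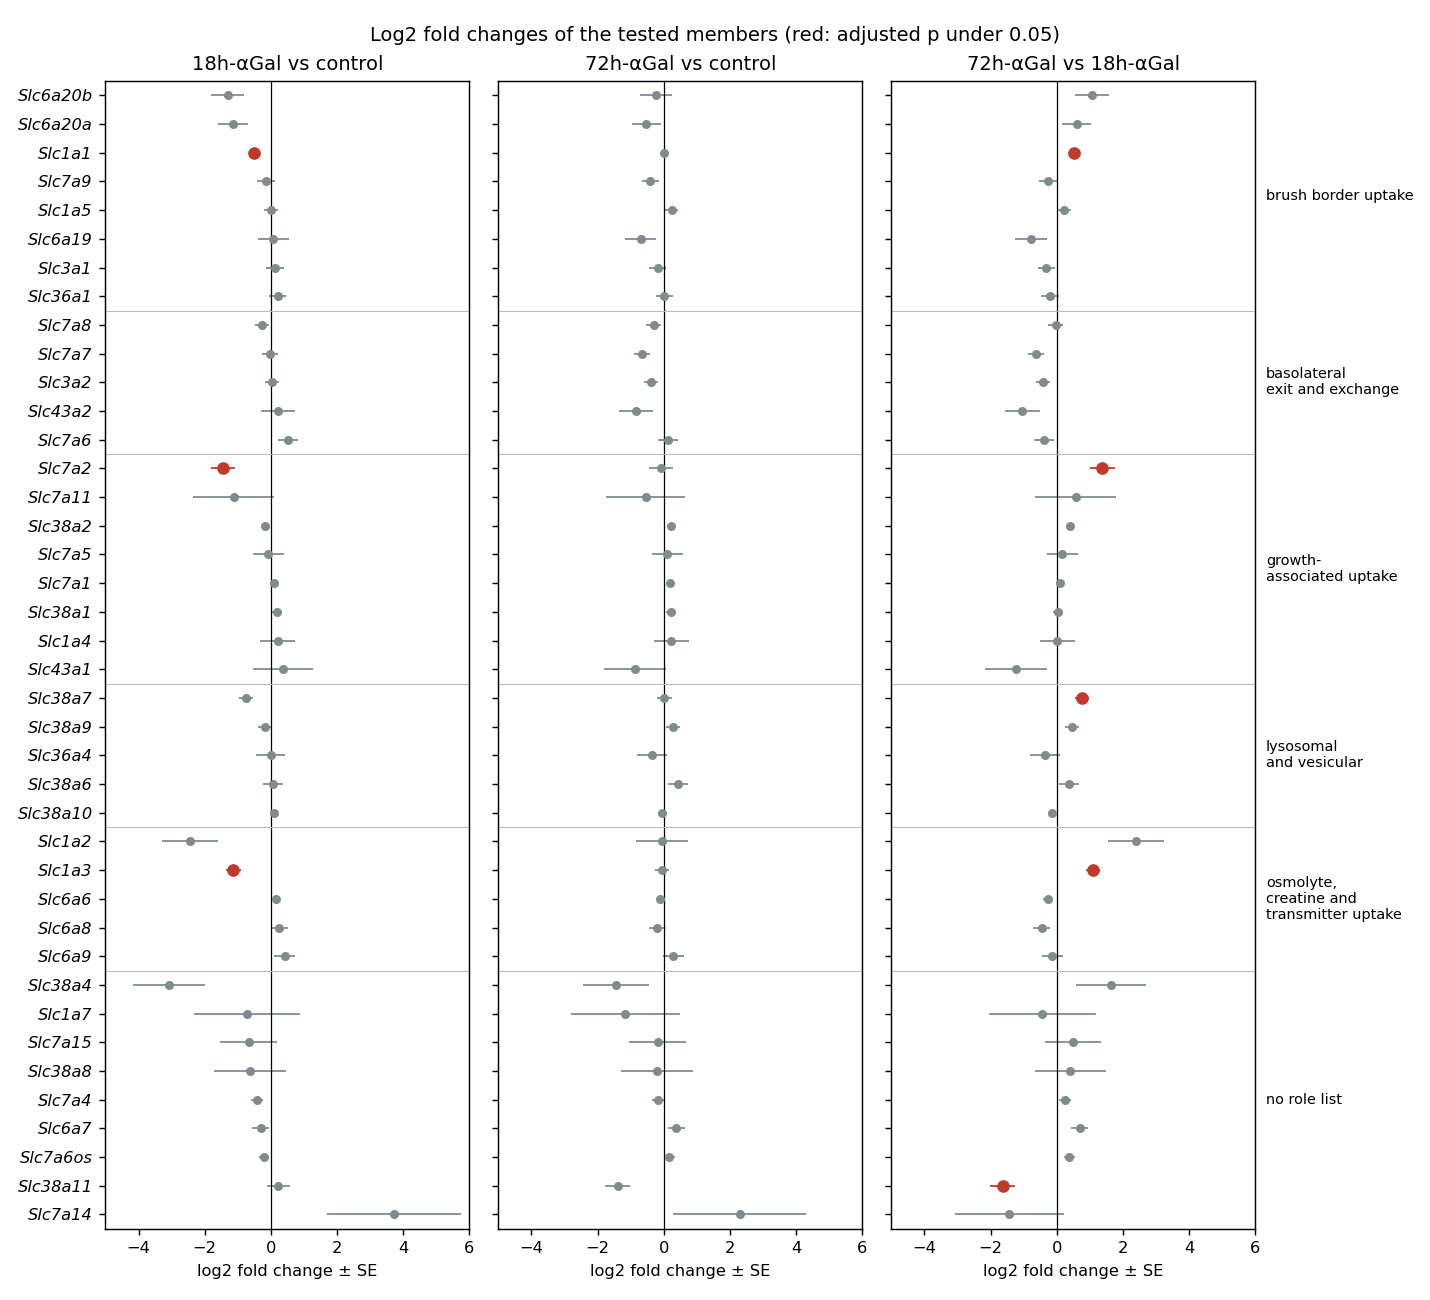
Log2 fold change ± SE (x axis) of the 40 tested genes (y axis, grouped by role) in the 3 comparisons, with those called at an adjusted p under 0.05 in red. Red points are 3 to the left of 0 in the first comparison, none in the second, and 4 to the right and 1 to the left in the third.

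By role, the brush border carriers were Slc6a19, Slc6a20a, Slc6a20b, Slc7a9, Slc3a1, Slc1a1, Slc36a1 and Slc1a5, and of these 8, Slc1a1 alone was called, at 18 h against control and between the times. Slc6a20a, a sodium-coupled carrier of proline and other imino acids, had 4377, 3144 and 5732 normalised counts in controls, 1723, 1108 and 3139 at 18 h and 2655, 4221 and 2172 at 72 h. The 18 h values lay below the control values, with control 2 at 3144 and 18h-αGal 3 at 3139 nearly touching, and the difference was not past the threshold (log2 fold change −1.14 ± 0.44, edgeR adjusted p = 0.201). Its near copy Slc6a20b gave −1.30 ± 0.51 (edgeR adjusted p = 0.151, and 0.0427 without 18h-αGal 3), from 115, 106 and 68.9 in controls and 34.7, 15.3 and 70.4 at 18 h. Reads may have been split between these copies, and they overlap Ccr9 and Sacm1l, respectively, on the opposite strand. The remaining brush border genes overlapped between all groups: Slc36a1, a proton-coupled carrier, had 1722 to 2556 in controls, 1889 to 2627 at 18 h and 1262 to 2719 at 72 h, and Slc1a5, a glutamine and neutral amino acid exchanger, had 1208 to 2141, 1403 to 2042 and 1815 to 2278.

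Slc6a19, the main brush border carrier of neutral amino acids, had 2136, 1326 and 3326 normalised counts in controls, 2843, 1592 and 2648 at 18 h and 1311, 2068 and 754 at 72 h. Its lowest value was in 72h-αGal 3 and its highest in control 3, and all groups overlapped. The same 2 libraries held the extremes of Slc7a9, Slc7a7, Slc3a2, Slc43a2 and Slc7a15, which makes 6 of the 42 genes. Slc43a2 had 7029.7, 4145 and 13373 in controls, 9444, 7498 and 11074 at 18 h and 4661, 6618 and 2336 at 72 h. The enterocyte marker sums given above have their highest and lowest values in the same libraries, and control 3 was also the library with the fewest reads. Their part in these values was not tested. None of the 5 basolateral genes, Slc7a7, Slc7a6, Slc7a8, Slc3a2 and Slc43a2, was called with edgeR in any comparison, and their sum was 18988, 13533 and 31006 in controls, 21301, 17832 and 24588 at 18 h and 14877, 17838 and 10236 at 72 h. Slc7a7 had 2899.8, 2699 and 3765 at 18 h, all above its 72h-αGal values given above, and the log2 fold change between the times was −0.63 ± 0.24 (edgeR adjusted p = 0.139), which passed the threshold with DESeq2 (0.0495), in the fit of the 2 groups alone (0.0356) and without control 3 (0.0213). Slc7a6, which shares substrates with Slc7a7, went the other way across the controls, with 277, 332 and 159, and had 460.3, 389 and 257 at 18 h.

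Among the 8 growth-associated carriers, Slc7a2 alone was called, in the same comparisons as Slc1a1. Their sum was 20508, 23019 and 16799 normalised counts in controls, 20757, 20636 and 16510.4 at 18 h and 22906, 21193 and 24429 at 72 h, and control 3 and 18h-αGal 3 were the lowest libraries. Slc38a2, the most abundant, had 10282, 11994 and 9058 in controls, 9891, 9228 and 8302 at 18 h and 11476, 11575 and 12834 at 72 h. The 72h-αGal values lay above the 18h-αGal values, a difference just short of the threshold (log2 fold change 0.40 ± 0.12, edgeR adjusted p = 0.0563) that passed it with DESeq2 (adjusted p = 0.0489) and under 4 other alternatives. Slc7a1, the other cationic amino acid carrier of the list, had 4657 to 5761 in controls, 4648 to 5851 at 18 h and 5216 to 6164 at 72 h, which overlap. Slc7a5, the large neutral amino acid carrier of growing cells, spread widely within groups, over 606 to 1344 in controls, 440.1 to 1329 at 18 h and 836 to 1424 at 72 h. Slc38a1, Slc1a4, Slc43a1 and Slc7a11 overlapped between all pairs of groups, and Slc7a11 did not exceed 26.6 normalised counts in any library.

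Of the 5 lysosomal and vesicular carriers, Slc38a7 was called between the times and the others in no comparison. Slc38a9, the lysosomal arginine sensor upstream of mTORC1, had 321 to 418 normalised counts in controls, 274 to 387 at 18 h and 382 to 509 at 72 h. Slc38a10 had 1655 to 1954, 1715 to 2012 and 1683 to 1744. Slc38a6 had 146 to 190.2 in controls, 105 to 244 at 18 h and 214, 229 and 226 at 72 h. The 72 h values all lay above the controls (log2 fold change 0.44 ± 0.29, edgeR adjusted p = 0.885), and Slc38a6 overlaps Trmt5 on the opposite strand. Slc36a4 stood at 38 to 110.1 in controls. Of the carriers of osmolytes, creatine and transmitters, 5 were tested and Slc1a3 alone was called, at 18 h and between the times. The taurine transporter Slc6a6 had 6310.2 to 8994 in controls, 7453 to 9206 at 18 h and 6318 to 6956 at 72 h, and the creatine transporter Slc6a8 had 4165 to 6975, 5250.4 to 7865 and 3186 to 5817.

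Of the genes in no role list, 9 were tested and Slc38a11 alone was called. Slc6a7, a proline transporter best known from the brain, had 179, 162 and 216 normalised counts in controls, 138, 178 and 128 at 18 h and 204, 257 and 254 at 72 h, and the 72h-αGal libraries lay above the 18h-αGal libraries but missed the threshold (edgeR adjusted p = 0.0976). Slc7a15 ranged from 36.1 in 72h-αGal 3 to 489.7 in control 3. Slc7a4 had 366 to 445 in controls and 277 to 335 at 18 h (log2 fold change −0.42 ± 0.19, edgeR adjusted p = 0.222), and Slc7a6os had 623 to 777 and 551 to 635. Slc38a4 had 66.4, 30.4 and 9.51 in controls and 6.31, 5.39 and 0 at 18 h, near the floor of 3 reads per library, and Slc38a8, Slc1a7, Slc43a3, Slc6a3 and Slc7a14 had at most 27.6 in any library. With edgeR no difference in these genes other than Slc38a11 passed the threshold, whereas DESeq2 called Slc38a4 lower at 18 h (adjusted p = 0.0398), and the depth of the scarce ones limits what could be detected.

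**Figure D4:**
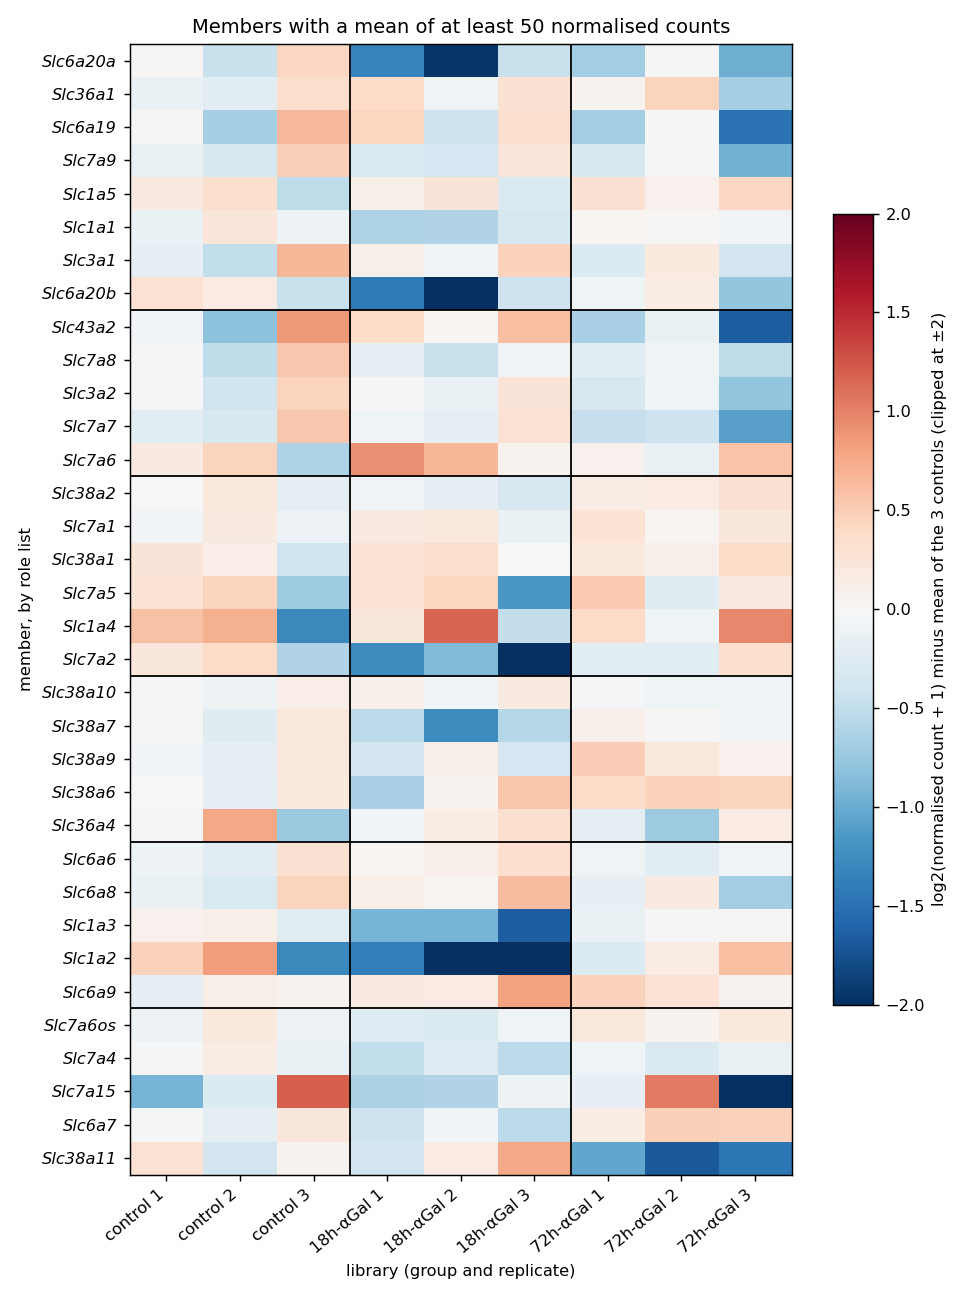
Difference from the mean of the 3 controls on the log2(normalised count + 1) scale (colour, clipped at ±2) of the genes with a mean of at least 50 normalised counts (rows, by role list), in each library (columns). The rows of Slc1a3, Slc7a2 and Slc1a2 are blue in all 18h-αGal libraries, and Slc38a11 is blue in all 72h-αGal libraries.

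**Figure D5:**
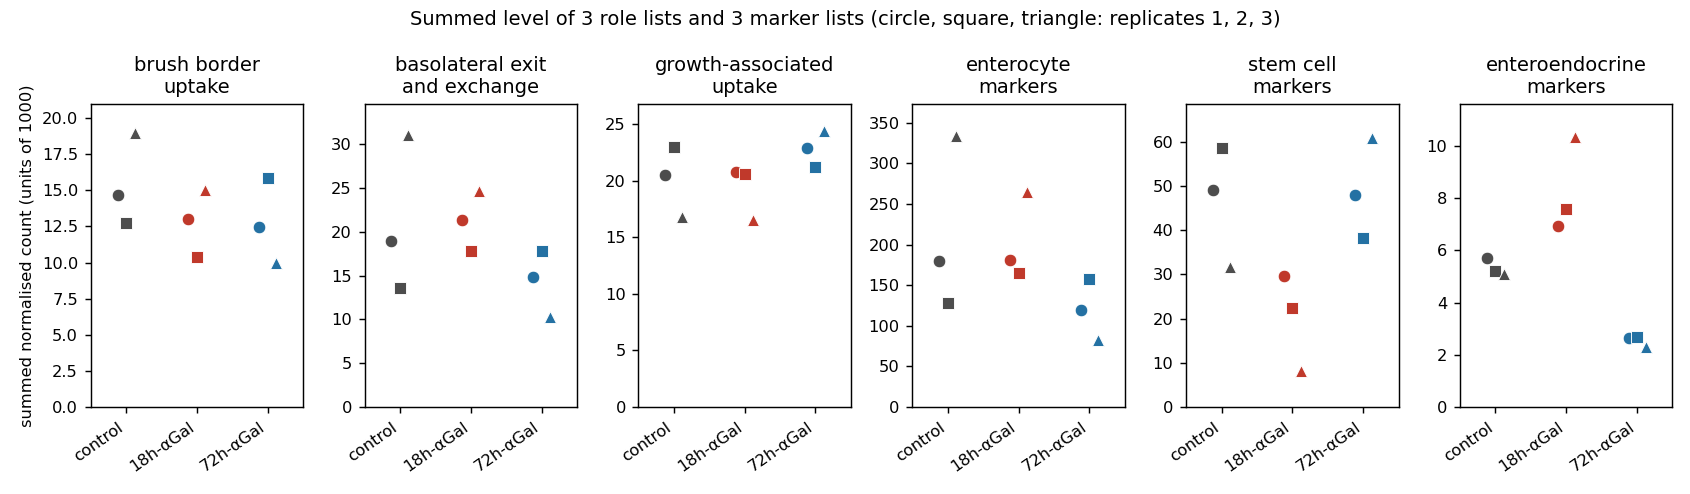
Summed normalised counts (y axes, in units of 1000, from 0) of 3 role lists of transporters and 3 lists of cell type markers, by group (x axes), with 1 point per mouse. Control 3 is highest and 72h-αGal 3 lowest for basolateral carriers and for enterocyte markers, stem cell markers are lowest at 18 h, and enteroendocrine markers are lowest at 72 h.

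Genes that act with the transporters, but lie outside the prefixes, were examined in 3 lists. Among partners of uptake, which include the peptide transporter Slc15a1 and the aminopeptidase Anpep, none of the 11 tested was called in any comparison. Without both control 3 and 72h-αGal 3, 2 were called at 18 h against control, 0 at 72 h against control and 2 between the times. With edgeR, 1, 1 and 2 of them had an unadjusted p under 0.05 at 18 h against control, at 72 h against control and between the times, and with DESeq2 0, 0 and 2 were called. All 11 had lower values at 72 h than in controls, with a median log2 fold change of −0.75, beside 0.0022 for all genes, and Slc15a1 had 1626, 1219 and 4256 normalised counts in controls and 1173, 1869.9 and 718 at 72 h. Control 3 and 72h-αGal 3 were again the highest and the lowest library of Slc15a1.

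Of the 29 tested genes of the ATF4 response, which cells mount when amino acids are short, 7 were called at 18 h, beside the 5.96% of all genes given above. The 6 that rose encode enzymes of serine and folate metabolism (Psat1, Shmt2, Mthfd2) and the alanyl-, asparaginyl- and glycyl-tRNA synthetases (Aars1, Nars1, Gars1), and Atf3, a stress-induced transcription factor, fell. Psat1 had 287, 176 and 140.3 normalised counts in controls, 684, 716 and 477 at 18 h and 211, 191 and 252 at 72 h (log2 fold change at 18 h 1.63 ± 0.27, edgeR adjusted p = 0.00291). The others that rose had log2 fold changes of 0.63 for Gars1, 0.67 for Aars1, 0.68 for Nars1, 1.0 for Shmt2 and 1.04 for Mthfd2, and Atf3 had −0.70 ± 0.10 (edgeR adjusted p = 0.00136). Asparagine synthetase, Asns, a defining gene of the response, had 741, 739 and 471 in controls and 975, 1312 and 887 at 18 h and was not past the threshold (edgeR adjusted p = 0.0795), and Atf4 itself had 4519 to 4936 and 4534 to 5090.0. Aldh18a1, of the same list, had 7374, 7523 and 9564 in controls and 5498, 5658 and 6646 at 18 h. Its values were thus lower at 18 h, also short of the threshold (log2 fold change −0.45 ± 0.13, edgeR adjusted p = 0.0566). An unadjusted p under 0.05 was reached by 11 of the 29, of which 2 had lower values, beside 20.8% of all genes. Called or not, 19 of the 29 had higher and 10 had lower values at 18 h than in controls. Their median log2 fold change was 0.17, beside −0.030 for all genes. The call of Shmt2 was lost under 10 of the 15 alternatives (adjusted p up to 0.129), and its 18h-αGal 3 (1347) lay below control 2 (1387), while that of Aars1 was lost under 3, of Gars1 under 2 and of Mthfd2 under 1. Between 18 h and 72 h, Psat1, Shmt2, Aars1, Nars1 and Gars1 fell and Atf3 rose, 6 of 29 beside the 10.2% of all genes called in that comparison, while none of the 29 was called at 72 h against control. At 18 h the count was 4 without control 1 and 4 without 18h-αGal 2. None of the transporters best known as targets of ATF4, Slc7a11, Slc7a5, Slc3a2, Slc38a2, Slc1a4 and Slc7a1, was called at 18 h, with edgeR adjusted p between 0.439 and 0.964.

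Of the 25 tested genes of lysosomal amino acid sensing and mTORC1, 3 were called at 18 h, again beside 5.96% of all genes. Flcn, which acts on the Rag GTPases at the lysosome, had 457, 407 and 368 normalised counts in controls, 211, 261 and 258 at 18 h and 416, 435 and 425 at 72 h (log2 fold change at 18 h −0.76 ± 0.19, edgeR adjusted p = 0.0288). Sesn1, an inhibitor of mTORC1 when leucine is low, fell (−0.93 ± 0.19, edgeR adjusted p = 0.0122), and Lamtor3, a subunit of the complex that anchors the Rag GTPases, rose (0.64 ± 0.16, edgeR adjusted p = 0.0253). Between 18 h and 72 h, Flcn rose and Lamtor1, Lamtor3 and Rragd fell, 4 of 25 beside 10.2% of all genes, and none of the 25 was called at 72 h against control. The 18 h call of Flcn was lost under 8 of the 15 alternatives (adjusted p up to 0.121), that of Lamtor3 under 5 and that of Sesn1 under 1. The count at 18 h was 1 in the fit of the 2 groups alone, 1 with the replicate block, 1 without control 2 and 0 without 18h-αGal 2, and the count between the times was 2 without 18h-αGal 2, 18h-αGal 3 or 72h-αGal 2 and 1 without 72h-αGal 3. Flcn, like Slc38a7, was lowest in the 18h-αGal libraries, while Mtor (2494 to 3159.6 in controls, 2759.5 to 3328 at 18 h) overlapped between these groups.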

How the data were processed

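RNA of 9 sorted IEC samples was sequenced by the authors as ribosomal RNA-depleted, directional libraries with 100-base reads. Per the submitters' processing notes, reads were mapped with HISAT2 and counted with featureCounts of Subread, and DESeq2 1.42.0 was used. The notes name GRCm38 and the study's methods GRCm39, the annotation release and strand setting are not given in the sources used here, and gene coordinates of the counts are therefore not printed. The authors deposited raw counts per gene and a normalised signal, which equals the count divided by 1 factor per library and is not corrected for length. The floor of 3 reads covers counting error only, whereas the SDs and SEs also include variation between mice.

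Symbols, biotypes, exon lengths and overlaps were taken from GENCODE vM39 by Ensembl identifier (28480 of 29288 matched, with 98.4% of counts). Raw counts were tested with edgeR 4.0.16 in R 4.3.3: filterByExpr, TMM scaling, a robust quasi-likelihood fit of group means over all 9 libraries, 3 contrasts, two-sided p-values with Benjamini-Hochberg adjustment over all 18933 genes tested and calls at 0.05. Standard errors were derived from the F statistic. The procedure was tested on simulated data. Groups came from the labels, which give no batch. Deviations from the group means of same-numbered libraries correlated between −0.15 and 0.11, so the replicate numbers were not treated as pairs. Replicates within a group differed beyond counting error (chi-square per degree of freedom 14.2 to 47.5).

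The genes and lists were chosen with earlier results of these data known. Named with values were all called transporters and the members of the role lists, with others by range, and of the pathway lists the called genes and up to 4 more. The genes of no role list other than Slc38a11, and Aldh18a1 of the ATF4 list, were named after their values were seen. Alternatives were DESeq2, other size factors, no count filter, fits of 2 groups, a replicate block and leaving out libraries. Single values of some list members are not reported here.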

Additional observations from a re-analysis of the deposited data

Results flagged for a closer look

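In 5 transporters the 2 treated groups differed from each other in a direct test, which means that their differences from the shared controls differed between 18 h and 72 h. These are the genes called between the times with edgeR's quasi-likelihood test. On the log2 scale, 72h-αGal minus 18h-αGal was 1.09 for Slc1a3, 1.38 for Slc7a2, 0.52 for Slc1a1 and 0.77 for Slc38a7, all higher at 72 h, and −1.63 for Slc38a11, which was lower. In each of the first 4 genes all 3 mice at 72 h had higher values than all 3 mice at 18 h, and in Slc38a11 all 3 had lower values. The ranges of these 2 groups did not overlap for 12 of 40 transporters (30.0%), beside 32.8% of all genes. The controls were taken at 18 h only, so a change with time alone and a change in the response to αGalCer cannot be told apart.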

How the results depend on the processing

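The count of transporters called at 18 h was 3, and it was 5 with DESeq2, which added Slc38a7 and Slc38a4, and 1 when the 2 groups were fitted alone, all of them lower. It ranged from 1 to 3 when single libraries were left out. The count between 18 h and 72 h was 5, it was 3 without both control 3 and 72h-αGal 3 (chosen after the data were seen), and it ranged from 1 to 7 over single libraries left out. The count at 72 h against control was 0 under all 15 alternatives. Shares of all genes called under the alternatives are not given, here or above, so these counts cannot be set against such a share. With the replicate number as a block, the counts were 2, 0 and 5. The block is given for completeness, since the numbers did not pair the mice, and Slc1a1 was the call lost at 18 h (adjusted p 0.0729). Fitting the 2 groups alone left Slc1a3 called at 18 h and ended the calls of Slc7a2 and Slc1a1 (adjusted p 0.0813 and 0.0981). Without both control 3 and 72h-αGal 3, the rises of Slc7a2 and Slc38a7 between the times were no longer called (0.066 and 0.055). The signs that turned belonged to differences that were not called. At 72 h against control, Slc1a1 was −0.0063 with DESeq2, −0.0057 with the other size factors and −0.021 without both of those libraries, and Slc7a2 was 0.042 with the replicate block. Leaving out single libraries gave −0.13 to 0.030 for Slc1a3, −0.30 to 0.12 for Slc7a2, −0.052 to 0.15 for Slc1a1 and −0.081 to 0.13 for Slc38a7 in that comparison, and −0.097 to 0.47 for Slc38a11 at 18 h against control. The causes were not tested. Of the 330 values that the alternatives gave for 22 log2 fold changes of transporters in the text, 268 kept direction and side of the threshold, 34 lost the call, 11 gained one and 17 turned sign. Depth limits genes near the floor of 3 reads per library, and most of all in control 3.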
